A study of Mus musculus with 24 samples.

Results

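Brown fat of mice without Hdac3 in their brown adipocytes was compared 24 h after a short cold exposure and without one. The comparison used 8 of the study's 24 libraries, 4 from KO mice after 24 h of recovery and 4 from KO mice kept at 22 °C. It took in all 12577 genes of the authors' deposited table for this pair of groups, of 13162 genes in any of their tables. The tissue was interscapular brown adipose tissue, a heat-producing pad under the skin of the upper back, taken at ZT10 from male C57BL/6 mice aged 10 to 12 weeks. KO mice carried floxed HDAC3 alleles and Ucp1-cre, a recombinase driven by the Ucp1 promoter. Control mice carried the same floxed alleles without the Cre. Mice of the recovery groups spent 24 h at 15 °C and were then back at 22 °C for 24 h, and mice of the 22 °C groups stayed in standard housing. The 4 Control libraries after 24 h of recovery and the 4 Control libraries at 22 °C are used beside them, and 7 d of recovery is given for some values. The series asks whether an effect of cold lasts, in Control and in Hdac3-deficient mice. The Cre acts where the Ucp1 promoter is or was active, so other cells of the pad keep Hdac3, and RNA was taken from the whole pad. Fewer cells of a type and less RNA per cell cannot be told apart in such samples.

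Brown adipocytes burn fatty acids and glucose in densely packed mitochondria, and UCP1 in the inner membrane lets protons back into the matrix so that the energy appears as heat. Cold drives this through noradrenaline, beta-adrenergic receptors and cAMP, and the coactivator PGC-1alpha with the estrogen-related receptors (ERR) raises the genes of respiration. HDAC3 is the histone deacetylase of nuclear receptor corepressor complexes. In mouse brown fat it is known to be needed for Ucp1 expression and for ERR-driven genes before cold arrives.

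The authors deposited for each gene the group means in RPKM (reads corrected for gene length and for the depth of the library), log2 fold changes and adjusted p-values from edgeR. A gene is said to rise or fall where the authors' adjusted p was under 0.05. The tables hold means only, so no spread is printed beside a level and the adjusted p carries the error. No label says that each library is a separate mouse, and the p-values then reflect variation between libraries, which may be technical. Library totals, worked out from the smallest steps between low means, ran from 6.40e+06 to 1.20e+07 in KO 24 h recovery and from 8.48e+06 to 9.83e+06 in KO 22 °C, beside 7.51e+06 to 9.81e+06 in Control 24 h recovery and 5.35e+06 to 8.29e+06 in Control 22 °C. Listed genes held 75.1% of these totals in KO 24 h recovery and 65.5% in KO 22 °C.

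After 24 h of recovery, 2780 genes were higher in KO brown fat than in KO brown fat kept at 22 °C, which is 22.1% of the rows of the deposited table. Another 2496 were lower, which is 19.8%, so that 41.9% of rows were called. The median fold was 1.76 among the genes that rose and 1.70 among those that fell, and 1050 rose and 782 fell by at least 2-fold. At least 8-fold changes were found for 74 genes that rose and 38 that fell. In Control, 1682 genes (13.1%) rose and 1113 (8.67%) fell over the same interval. The genes that rose in KO included Ucp1 and most listed genes of mitochondria and fuel burning, and those that fell included most listed immediate early genes.

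Hdac3, the targeted gene, stayed low in both KO groups, with deposited means of 6.43 RPKM in KO 24 h recovery and 8.57 RPKM in KO 22 °C. Control means were 27.1 RPKM at 24 h and 26.1 RPKM at 22 °C. Within the KO it was 1.36-fold lower after recovery in the deposited table (adjusted p = 0.010). The genes with the largest changes below were therefore compared between 2 groups that both lack most Hdac3 RNA.

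Ucp1 RNA was far lower in KO brown fat at 22 °C than after recovery. Its deposited mean was 3884 RPKM in KO 24 h recovery, against 32.8 RPKM in KO 22 °C (114-fold higher, adjusted p = 1.3e-46). Control had 4966 RPKM at 24 h and 1607 RPKM at 22 °C, a 3.16-fold rise (adjusted p = 1.4e-04). KO and Control therefore stood far apart at 22 °C, with a deposited log2 fold change of -5.39 (adjusted p = 4.2e-33). At 24 h the log2 fold change of KO over Control was -0.21 (adjusted p = 0.779), so no difference in Ucp1 was detected there. At 7 d the deposited means were 2163 RPKM in KO and 2948 RPKM in Control.

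Other genes that mark brown adipocytes followed with smaller folds. Cidea, a lipid droplet protein, had a deposited mean of 1290 RPKM in KO 24 h recovery, against 433 RPKM in KO 22 °C (2.91-fold higher, adjusted p = 1.9e-19). Cox7a1, a subunit isoform of cytochrome oxidase found in brown fat and muscle, had 881 RPKM against 56.4 RPKM in KO 22 °C (15.3-fold higher, adjusted p = 2.0e-82). Dio2, the deiodinase that makes active thyroid hormone, had 71.0 RPKM in KO 24 h recovery, against 7.03 RPKM in KO 22 °C (9.67-fold higher, adjusted p = 2.9e-06). These 3 genes thus rose alongside Ucp1. Ppargc1a, which encodes PGC-1alpha, was 2.58-fold higher at a low deposited level of 7.07 RPKM in KO 24 h recovery and 2.64 RPKM in KO 22 °C (adjusted p = 2.9e-04). Elovl3, an enzyme that lengthens fatty acid chains, reached 713 RPKM in KO 24 h recovery, against 30.2 RPKM in KO 22 °C, while Control had 64.4 RPKM at 24 h and 3.57 RPKM at 22 °C in the deposited tables. The fold of Elovl3 was 23.0 in KO and 17.9 in Control, and these changes did not differ past the threshold (difference 0.36 log2, adjusted p = 0.812). The identity factors Prdm16 (2.10 RPKM in KO 24 h recovery and 2.09 RPKM in KO 22 °C) and Zic1 (0.997 RPKM in KO 24 h recovery and 0.864 RPKM in KO 22 °C) did not pass the deposited test. Ebf2, another identity factor, was 1.38-fold higher (adjusted p = 0.015). Of 26 listed brown fat regulators 5 rose and 7 fell (median log2 fold change -0.38), beside 22.1% and 19.8% over all rows. Mecom, Ebf1, Pparg, Irf4, Zfp423, Lhx8 and Tle3 fell, and Ebf2, Cebpb, Ppargc1a, Ppargc1b and Med1 rose.

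**Figure D1:**
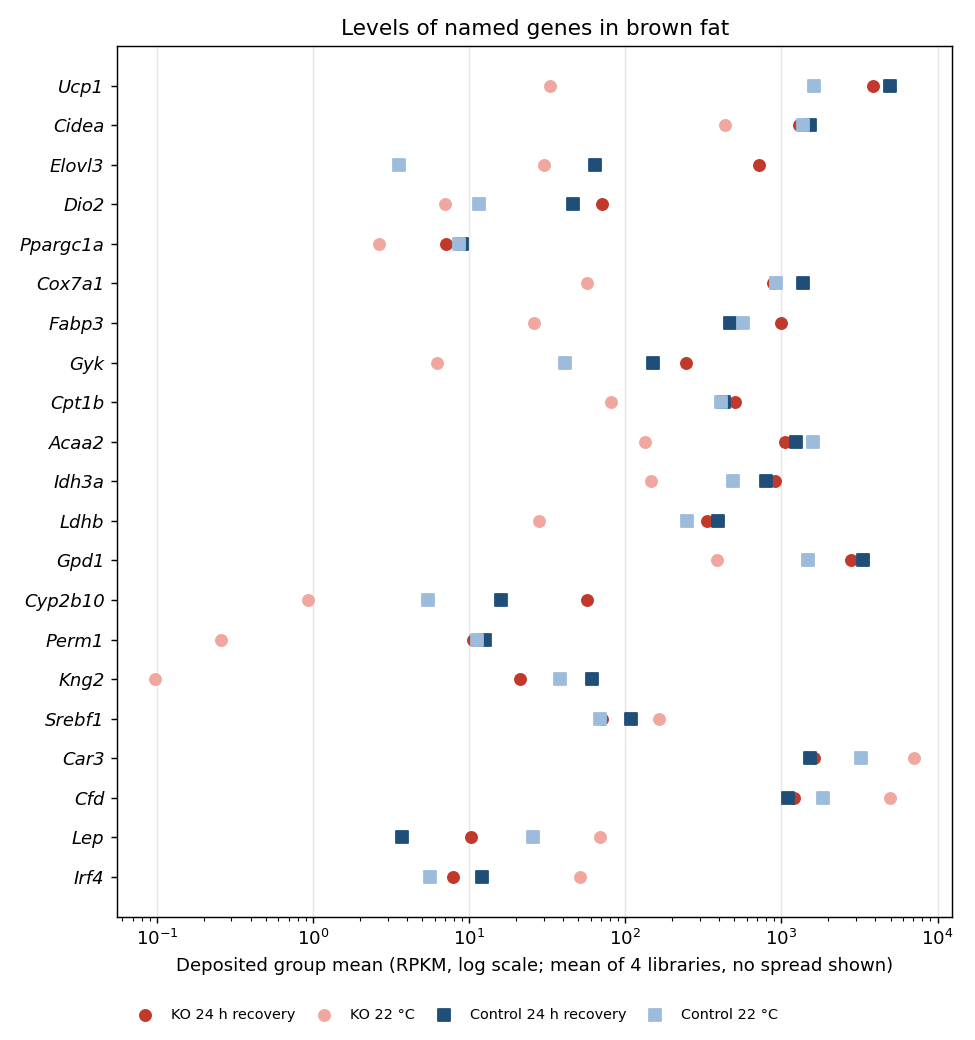
Deposited group means in RPKM (log axis) of 21 named genes, with KO as circles and Control as squares, dark for 24 h of recovery and pale for 22 °C; no spread is shown. For genes from Ucp1 to Kng2 the pale circle, KO at 22 °C, lies left of the dark one, and for Srebf1, Car3, Cfd, Lep and Irf4 it lies right of it.

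Of 29 listed genes of the thermogenic programme, 24 rose and 0 fell in KO, with a median log2 fold change of 1.77, against -0.02 over all rows of the deposited table. In Control 11 rose and 3 fell. Summed over these genes, the deposited means came to 11432 RPKM in KO 24 h recovery and 1827 RPKM in KO 22 °C, beside 11649 RPKM in Control 24 h recovery and 7720 RPKM in Control 22 °C. Ucp1 was the largest single part of the KO 24 h recovery sum. Among other members, Fabp3, a cytosolic fatty acid carrier, had a deposited mean of 986 RPKM in KO 24 h recovery, against 26.0 RPKM in KO 22 °C (37.3-fold higher, adjusted p = 8.2e-37). In Control Fabp3 had 470 RPKM at 24 h and 567 RPKM at 22 °C, with no change called. Acot11, a long-chain acyl-CoA thioesterase, was 29.8-fold higher in KO, at 62.3 RPKM in KO 24 h recovery and 2.03 RPKM in KO 22 °C. Letmd1, a mitochondrial protein of brown fat, was 10.7-fold higher (adjusted p = 6.2e-86) and Otop1, a proton channel, 5.82-fold higher (adjusted p = 1.3e-46) in the deposited table. The beta-3 adrenergic receptor gene Adrb3 (43.9 RPKM in KO 24 h recovery and 56.0 RPKM in KO 22 °C, adjusted p = 0.205) was among the 5 members that did not pass.

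Beyond the known programme, several of the largest rises came from genes that were close to unread in KO at 22 °C. Lgr6, a receptor for R-spondins, had a deposited mean of 3.87 RPKM in KO 24 h recovery and 0.0075 RPKM in KO 22 °C, where about 1 read lay behind the mean. Arhgdig, Slco4a1 and Dnajc22 had 2.92, 0.953 and 0.888 RPKM in KO 24 h recovery and were listed at 0 in KO 22 °C. Control already held Lgr6 at 14.3 RPKM at 24 h and 11.05 RPKM at 22 °C. Kng2, a kininogen whose reads may be shared with its close paralog Kng1, had 21.3 RPKM in KO 24 h recovery, against 0.097 RPKM in KO 22 °C (deposited fold 204, adjusted p = 6.7e-99). Perm1, a muscle and brown fat regulator of ERR and PGC-1 target genes, had 10.6 RPKM in KO 24 h recovery, against 0.259 RPKM in KO 22 °C (40.6-fold higher, adjusted p = 3.5e-35). Cyp2b10, a cytochrome P450 with close paralogs, was 59.1-fold higher, at 56.5 RPKM in KO 24 h recovery and 0.930 RPKM in KO 22 °C. Gyk, glycerol kinase, which recaptures glycerol for triglyceride, was 38.3-fold higher, at 246 RPKM in KO 24 h recovery and 6.23 RPKM in KO 22 °C. Bmp8b, a secreted factor of thermogenic fat whose reads may be shared with Bmp8a, was near unread at 22 °C in Control as well. Its deposited means were 1.83 RPKM in KO 24 h recovery and 0.0087 RPKM in KO 22 °C, and 2.10 RPKM in Control 24 h recovery and 0 in Control 22 °C.

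The start regions of a few of these genes, and of some that fell, show what lies next to their transcription start. Each window runs from 250 bases before to 50 after the start, from RefSeq on build GRCm38.p6, matched by symbol, and is written 5′ to 3′ along the gene's strand. The expression tables were made on mm9, so these coordinates are not those of the tables. Capitals mark AAGGTCA, the core bound by ERR proteins, and TGACG, the core of the cAMP response element (TGACGTCA in full), on either strand.
Ucp1 (chr8:83290098-83290397, plus strand): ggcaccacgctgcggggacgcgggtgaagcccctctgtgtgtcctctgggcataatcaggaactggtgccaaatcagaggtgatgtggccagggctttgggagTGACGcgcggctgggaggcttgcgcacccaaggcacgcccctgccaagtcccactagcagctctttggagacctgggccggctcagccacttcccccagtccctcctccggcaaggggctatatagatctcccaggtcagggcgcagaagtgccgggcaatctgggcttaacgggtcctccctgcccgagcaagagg
Fabp3 (chr4:130308488-130308787, plus strand): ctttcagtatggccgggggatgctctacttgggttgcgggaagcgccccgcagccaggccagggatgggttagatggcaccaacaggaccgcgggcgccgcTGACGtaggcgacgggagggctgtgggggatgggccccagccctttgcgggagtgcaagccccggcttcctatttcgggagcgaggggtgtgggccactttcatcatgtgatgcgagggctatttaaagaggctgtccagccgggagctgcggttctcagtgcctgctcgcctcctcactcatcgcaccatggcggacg
Perm1 (chr4:156215677-156215976, plus strand): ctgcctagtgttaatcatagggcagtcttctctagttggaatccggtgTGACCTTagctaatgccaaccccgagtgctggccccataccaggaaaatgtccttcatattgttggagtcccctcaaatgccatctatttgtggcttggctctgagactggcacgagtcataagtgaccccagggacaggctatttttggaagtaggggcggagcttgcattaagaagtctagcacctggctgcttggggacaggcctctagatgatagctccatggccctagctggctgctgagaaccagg
Timm8b (chr9:50603651-50603950, plus strand): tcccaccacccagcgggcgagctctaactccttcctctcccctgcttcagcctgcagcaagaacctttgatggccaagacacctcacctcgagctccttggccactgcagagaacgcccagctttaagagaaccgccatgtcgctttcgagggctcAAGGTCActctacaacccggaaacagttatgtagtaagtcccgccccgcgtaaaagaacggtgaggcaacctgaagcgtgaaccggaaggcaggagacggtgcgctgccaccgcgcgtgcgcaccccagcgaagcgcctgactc
Fos (chr12:85473640-85473939, plus strand): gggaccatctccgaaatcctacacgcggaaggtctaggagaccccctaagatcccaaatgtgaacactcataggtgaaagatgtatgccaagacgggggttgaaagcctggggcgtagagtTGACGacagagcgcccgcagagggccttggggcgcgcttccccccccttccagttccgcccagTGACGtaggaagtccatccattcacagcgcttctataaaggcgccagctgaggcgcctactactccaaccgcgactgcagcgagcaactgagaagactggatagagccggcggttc
Nr4a1 (chr15:101266596-101266895, plus strand): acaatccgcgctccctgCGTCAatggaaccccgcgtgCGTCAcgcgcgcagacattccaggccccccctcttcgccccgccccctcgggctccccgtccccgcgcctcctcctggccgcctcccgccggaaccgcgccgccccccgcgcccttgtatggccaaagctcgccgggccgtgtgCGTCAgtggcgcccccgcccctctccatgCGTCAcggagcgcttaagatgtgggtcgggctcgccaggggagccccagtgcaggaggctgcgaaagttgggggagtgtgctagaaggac
Btg2 (chr1:134079106-134079405, minus strand): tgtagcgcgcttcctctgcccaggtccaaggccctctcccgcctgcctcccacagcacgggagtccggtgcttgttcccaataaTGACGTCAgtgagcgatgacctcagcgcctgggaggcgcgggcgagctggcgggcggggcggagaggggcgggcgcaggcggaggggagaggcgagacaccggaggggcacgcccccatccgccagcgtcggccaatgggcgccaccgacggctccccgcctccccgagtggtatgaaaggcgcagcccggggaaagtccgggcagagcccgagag
The Perm1 and Timm8b windows hold 1 AAGGTCA each, and the Ucp1 and Fabp3 windows hold TGACG only. Among the immediate early genes shown, Fos and Nr4a1 hold TGACG and Btg2 the full TGACGTCA. The windows shown were picked because they hold a match. Those of Cox7a1, Acot11, Bmp8b, Kng2, Lgr6 and Esrrg, which rose, hold none of these letters, and those of Dio2 and Cycs, which also rose, hold TGACGTCA.

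Over the 9085 listed genes with a window, 3.20% held AAGGTCA, against 4.33% of the 2126 that rose and 2.48% of the 1818 that fell. The share was 8.54% of the 164 windows of genes at least 4-fold higher (14 windows). It was 13.2% of the 76 windows of respiratory chain and ATP synthase genes (10 windows). CCGGAAGT, an ETS factor core, stood in 8.62% of all windows, 10.9% of those that rose and 4.90% of those that fell, and in 3.66% of those at least 4-fold higher and 7.89% of the respiratory chain and ATP synthase windows. TGACG stood in 32.5% of all windows, 33.4% of those that rose and 29.3% of those that fell, and in 14 of the 28 windows of immediate early genes (50.0%), 50.9% of those of the cytosolic ribosome and 43.3% of those of the mitochondrial ribosome. TGACGTCA, which contains TGACG, stood in 3.37% of all windows, 3.43% of those that rose, 2.15% of those that fell and 1 of the 28 windows of immediate early genes. The NRF1 site stood in 2.22% of all windows, 3.25% of those that rose and 1.93% of those that fell. For the YY1 site these shares were 1.75%, 2.82% and 1.10%. In the 76 respiratory chain and ATP synthase windows TGACGTCA, the NRF1 site and the YY1 site each stood in 6.58%, and TGACG in 36.8%. In the 164 windows at least 4-fold higher the NRF1 and YY1 sites each stood in 1.83%, TGACGTCA in 2.44% and TGACG in 22.6%. These motifs were chosen with the calls known, both strands were searched, and a match describes the letters, not a bound site.

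The respiratory chain rose almost as a whole. Of 91 listed genes of complexes I, II and III, cytochrome oxidase and ATP synthase, 83 rose and 0 fell in KO, with a median log2 fold change of 1.20. In Control 36 rose and 0 fell, with a median of 0.33. Complex I subunits, which take electrons from NADH, had 35 of 36 members higher, and deposited log2 fold changes over all 36 lay between 0.17 and 2.03. Ndufb6 had a deposited mean of 529 RPKM in KO 24 h recovery, against 126 RPKM in KO 22 °C (4.10-fold higher, adjusted p = 3.7e-45), and Ndufa7 was the member that did not pass (adjusted p = 0.366). All 15 listed genes of complex III and all 6 of complex II passed. Uqcrh, a small subunit of complex III, had 1017 RPKM in KO 24 h recovery, against 308 RPKM in KO 22 °C (3.23-fold higher), and Sdhd, a membrane anchor of complex II, had 550 RPKM against 167 RPKM in KO 22 °C (3.21-fold higher). Summed over complex I, the deposited means were 9675 RPKM in KO 24 h recovery and 4094 RPKM in KO 22 °C, beside 11688 RPKM in Control 24 h recovery and 10030 RPKM in Control 22 °C.

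Cytochrome oxidase had 14 of 16 subunit genes higher and 0 lower, but its tissue isoforms moved by very different amounts. Cox7a1 was 15.3-fold higher, whereas its ubiquitous counterpart Cox7a2 was 1.96-fold higher, at 386 RPKM in KO 24 h recovery and 193 RPKM in KO 22 °C (adjusted p = 3.8e-11). Cox8b, the brown fat and muscle form, was 1.90-fold higher, at 1421 RPKM in KO 24 h recovery and 734 RPKM in KO 22 °C. Its counterpart Cox8a was 1.37-fold higher (adjusted p = 0.0095) in the deposited table. The brown fat and muscle form thus had the larger fold in both pairs, with a wide gap in the first and a narrow one in the other. Cox4i2 and Cox6a2, forms of lung and of muscle, were listed under 3 RPKM in both KO groups and did not pass. In the ATP synthase list 13 of 18 rose and 0 fell, led in level by Atp5b at 2710 RPKM in KO 24 h recovery and 1154 RPKM in KO 22 °C (2.30-fold higher). Atpif1, its inhibitor, did not pass, at 12.9 RPKM in KO 24 h recovery and 11.4 RPKM in KO 22 °C (adjusted p = 0.712).

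The machinery that builds these complexes rose too. Of 76 listed mitochondrial ribosome genes, 71 rose and 0 fell (median log2 fold change 1.00), and of 35 genes of mitochondrial protein import 31 rose and 1 fell (median 1.02). Mrps36 had the largest change of the mitochondrial ribosome list and is not typical of it. It was 7.98-fold higher, with deposited means of 25.5 RPKM in KO 24 h recovery and 3.09 RPKM in KO 22 °C (adjusted p = 9.7e-35). Mrps36 stands in the list by its name, and whether its product is part of the ribosome was not tested. Timm8b, a carrier chaperone of the intermembrane space, was 2.96-fold higher, at 209 RPKM in KO 24 h recovery and 68.8 RPKM in KO 22 °C. Mitochondrial gene groups with smaller lists moved the same way, with 13 of 14 complex I assembly factors, 15 of 18 iron-sulfur cluster genes, 10 of 13 coenzyme Q synthesis genes and 13 of 16 cristae and cardiolipin genes higher. Phb, a scaffold of the inner membrane, was 4.78-fold higher (adjusted p = 5.6e-50), and Pdss1, which makes the tail of coenzyme Q, 6.30-fold higher (adjusted p = 2.3e-24). Genes that copy and transcribe mitochondrial DNA were more divided, with 11 of 24 higher and 3 lower. The mitochondrial RNA polymerase Polrmt was 3.02-fold higher (8.66 RPKM in KO 24 h recovery and 2.79 RPKM in KO 22 °C), while thymidine kinase Tk2 was 1.87-fold lower in the deposited table. Of 77 listed cytosolic ribosomal protein genes, with a median length of 710 bases beside 1053 bases for the mitochondrial ribosome, 11 rose and 9 fell, with a median log2 fold change of 0.01.

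**Figure D2:**
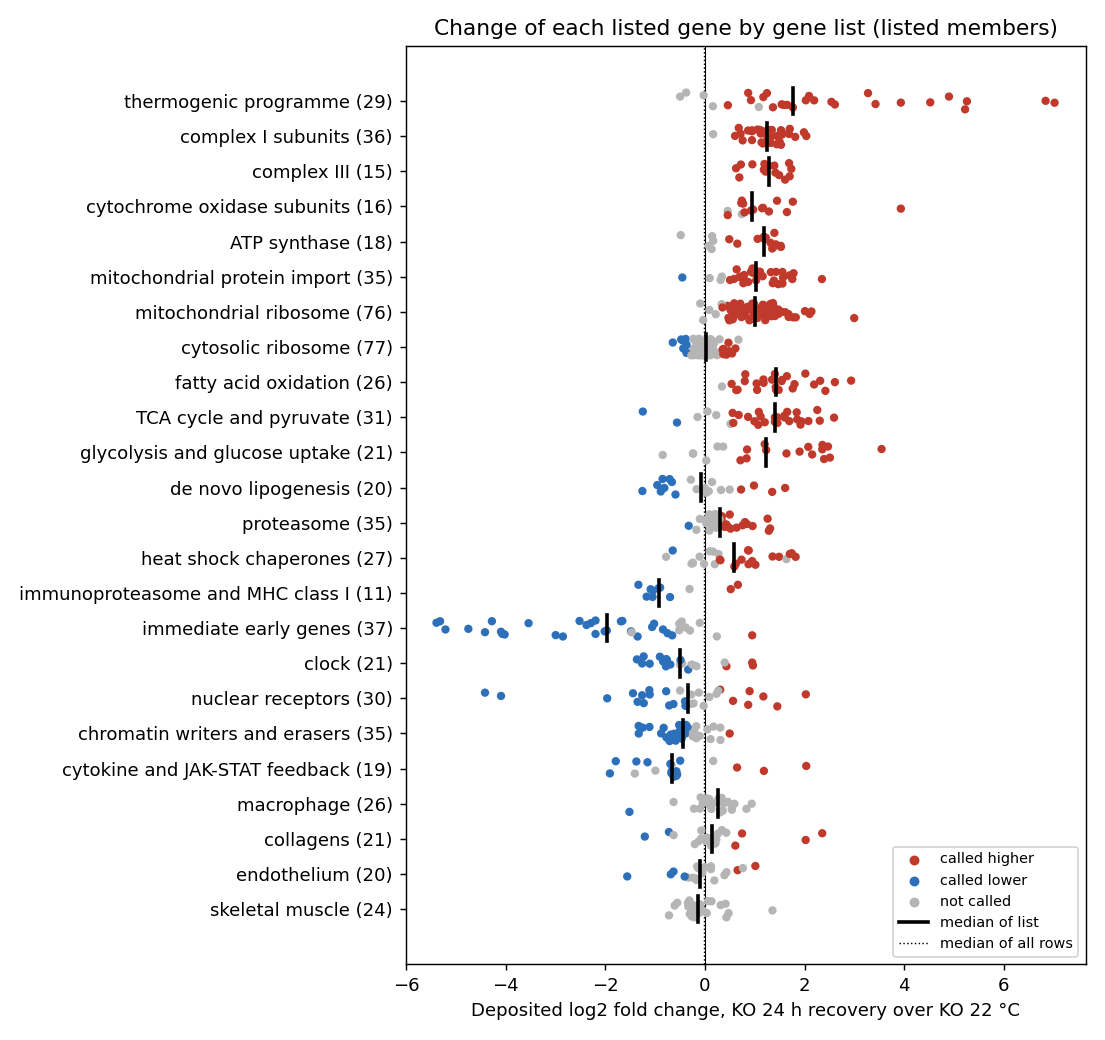
Deposited log2 fold change of KO 24 h recovery over KO 22 °C for each listed member of 24 gene lists, 1 point per gene, with the list median as a black bar. Complex I subunits lie to the right with 35 of 36 called higher, immediate early genes lie to the left with 28 of 37 called lower, and cytosolic ribosome and skeletal muscle genes lie around 0.

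Fuel-burning enzymes rose across pathways. Of 26 listed genes of mitochondrial fatty acid oxidation 25 rose and 0 fell (median log2 fold change 1.42), and of 31 genes of the TCA cycle and pyruvate oxidation 25 rose and 2 fell (median 1.40). Acaa2, the thiolase of the last step of the spiral, had a deposited mean of 1050 RPKM in KO 24 h recovery, against 134 RPKM in KO 22 °C (7.65-fold higher, adjusted p = 2.7e-65). Cpt1b, which admits long-chain fatty acids to mitochondria, was 6.10-fold higher, at 506 RPKM in KO 24 h recovery and 81.0 RPKM in KO 22 °C. Cpt1b overlaps the read-through locus ChkbCpt1b, so their reads cannot be kept apart. In Control neither gene changed past the threshold, with Acaa2 at 1247 RPKM at 24 h and 1583 RPKM at 22 °C, and Cpt1b at 431 RPKM at 24 h and 408 RPKM at 22 °C. At 24 h neither gene differed between KO and Control past the threshold (adjusted p = 0.712 for Acaa2 and 0.056 for Cpt1b). Idh3a, a subunit of the NAD-linked isocitrate dehydrogenase, was 6.03-fold higher (902 RPKM in KO 24 h recovery and 146 RPKM in KO 22 °C, adjusted p = 6.3e-79). Pdk4, the kinase that shuts pyruvate dehydrogenase, was 3.14-fold higher in KO (adjusted p = 3.4e-10) and 1.72-fold lower in Control (adjusted p = 0.0097).

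Most glycolysis genes rose as well. Of 21 listed genes of glycolysis and glucose uptake 15 rose and 0 fell in KO, with a median log2 fold change of 1.23. In Control 15 rose and 0 fell as well, with a median of 1.10. Ldhb, the lactate dehydrogenase subunit of oxidative tissues, had the smallest p of the list, with 335 RPKM in KO 24 h recovery, against 28.0 RPKM in KO 22 °C (11.7-fold higher, adjusted p = 1.2e-103). Aldoa, an aldolase, had deposited means of 1813 RPKM in KO 24 h recovery and 569 RPKM in KO 22 °C (3.11-fold higher), beside 2014 RPKM at 24 h and 893 RPKM at 22 °C in Control. The glucose transporter genes Slc2a1 and Slc2a4 did not pass. Glycogen genes were divided, with 12 of 20 higher and 3 lower. Gys2, the liver-type glycogen synthase, was 7.89-fold higher (37.0 RPKM in KO 24 h recovery and 4.57 RPKM in KO 22 °C), whereas the glycogen phosphorylase gene Pygb was 4.13-fold lower (19.6 RPKM in KO 24 h recovery and 79.2 RPKM in KO 22 °C, adjusted p = 8.6e-41). Gpd1, which makes glycerol 3-phosphate from glycolysis, was among the most abundant RNAs that rose, at 2799 RPKM in KO 24 h recovery and 385 RPKM in KO 22 °C (7.10-fold higher, adjusted p = 2.0e-40). Ckb, a creatine kinase, was 10.1-fold higher and Alpl, a phosphatase placed in the creatine cycle of mouse thermogenic fat, 6.92-fold higher in the deposited table. Peroxisomal genes had 22 of 39 higher and 1 lower, with Abcd3, a fatty acid importer, 5.72-fold higher (adjusted p = 2.5e-48).

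Lipid-making genes fell more often than they rose in KO and rose widely in Control. Of 20 listed genes of de novo lipogenesis, which builds fatty acids from citrate, 4 rose and 8 fell in KO (median log2 fold change -0.08). In Control 15 rose and 0 fell (median 0.91). Over all rows 22.1% rose and 19.8% fell in KO, and 13.1% rose and 8.67% fell in Control. For 8 of the 18 genes tested the KO change was below the Control change at an adjusted p under 0.05, and for 0 above. Srebf1, the transcription factor that drives them, had a deposited mean of 70.7 RPKM in KO 24 h recovery, against 165 RPKM in KO 22 °C (2.39-fold lower, adjusted p = 1.8e-13). Its Control means were 109 RPKM at 24 h and 68.3 RPKM at 22 °C, a 1.67-fold rise. Slc25a1, the citrate carrier, had 157 RPKM in KO 24 h recovery, against 269 RPKM in KO 22 °C, beside 278 RPKM in Control 24 h recovery and 96.0 RPKM in Control 22 °C. Fasn, fatty acid synthase, had 2023 RPKM in KO 24 h recovery, against 3219 RPKM in KO 22 °C (1.63-fold lower, adjusted p = 0.040), beside 2429 RPKM in Control 24 h recovery and 642 RPKM in Control 22 °C. KO levels were thus already high at 22 °C for these 3 genes. Scd2, a desaturase, rose in both genotypes, 3.05-fold in KO and 3.47-fold in Control in the deposited tables. Slc27a1, a fatty acid transporter, was 2.57-fold lower in KO (85.8 RPKM in KO 24 h recovery and 215 RPKM in KO 22 °C), and Aacs, which feeds ketone bodies into lipid synthesis, 3.46-fold lower.

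Immediate early genes, which respond fast and briefly to stimuli without new protein synthesis, formed the clearest falling group. Of 37 listed, 28 fell and 1 rose in KO, with a median log2 fold change of -1.97. In Control 4 fell and 1 rose. Fos, a subunit of AP-1, had a deposited mean of 0.637 RPKM in KO 24 h recovery, against 26.1 RPKM in KO 22 °C (41.8-fold lower, adjusted p = 5.0e-06). Nr4a1, an orphan nuclear receptor that cAMP induces, had 2.50 RPKM against 51.4 RPKM in KO 22 °C (21.3-fold lower, adjusted p = 1.7e-09). Btg2, an antiproliferative gene, had 6.56 RPKM against 73.9 RPKM in KO 22 °C (11.6-fold lower, adjusted p = 4.4e-10). The 3 were thus high in KO at 22 °C and low after recovery. Egr1 had 1.22 RPKM against 31.8 RPKM in KO 22 °C, and Cyr61, a matrix-associated growth regulator, 2.82 RPKM against 44.5 RPKM. The member that rose was Nfil3, a repressor tied to the clock. At 24 h no difference between KO and Control was called for Fos, Nr4a1 or Btg2, with Fos at 0.637 RPKM in KO and 2.66 RPKM in Control, Nr4a1 at 2.50 RPKM in KO and 2.75 RPKM in Control, and Btg2 at 6.56 RPKM in KO and 6.19 RPKM in Control. The group means do not show how the high level at 22 °C was spread over the 4 KO libraries. The KO change was below the Control change for 13 of the 32 genes tested and above it for 0.

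**Figure D3:**
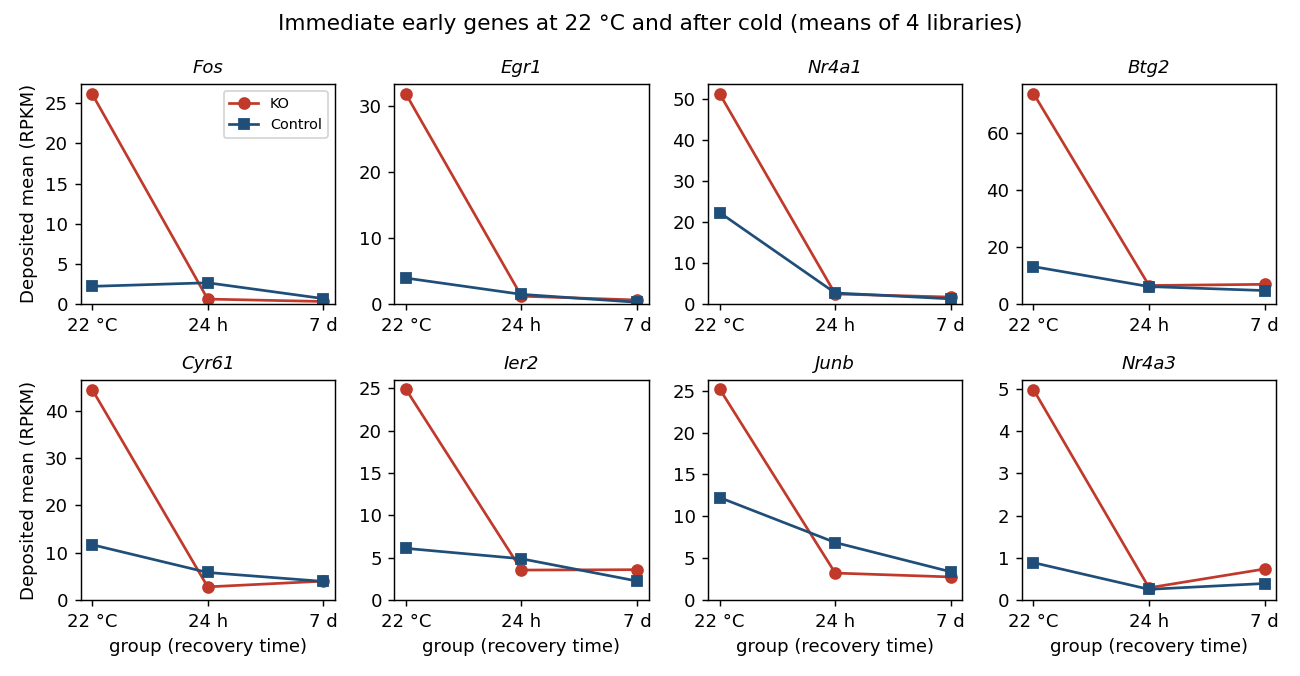
Deposited group means in RPKM (linear axes from 0) of 8 genes at 22 °C and at 24 h and 7 d of recovery, for KO (circles) and Control (squares); no spread is shown. KO at 22 °C is the highest point in each panel, and at 24 h the KO points lie at 6.56 RPKM (Btg2) or below.

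Some signalling genes also fell. Irs2, an insulin receptor substrate, was 6.56-fold lower (2.76 RPKM in KO 24 h recovery and 17.6 RPKM in KO 22 °C), and Irf4, a factor that cAMP induces in brown fat, was 6.80-fold lower (7.84 RPKM in KO 24 h recovery and 51.5 RPKM in KO 22 °C). Of 37 adrenergic and cAMP genes 12 rose and 8 fell, beside 22.1% and 19.8% over all rows, and the adenylyl cyclases split. Adcy3, the isoform that cold induces in mouse brown fat, was 5.84-fold higher (208 RPKM in KO 24 h recovery and 34.9 RPKM in KO 22 °C), and Adcy5 was 6.04-fold lower (2.29 RPKM in KO 24 h recovery and 13.5 RPKM in KO 22 °C) in the deposited table. Of 19 genes of cytokine and JAK-STAT signalling 12 fell and 3 rose, among them Il6ra, the interleukin 6 receptor (3.75-fold lower), and Igf1 (3.45-fold lower). Of 21 clock genes 12 fell and 3 rose (median log2 fold change -0.50), with Per1 2.57-fold lower (adjusted p = 4.1e-09) and Arntl, which encodes BMAL1, 1.95-fold higher (adjusted p = 4.7e-04).

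Nuclear receptors fell more often than they rose. Of 30 listed, 7 rose and 14 fell (median log2 fold change -0.34), beside 22.1% and 19.8% over all rows. The 2 receptors tied most closely to respiration rose, with Esrra 2.26-fold higher (42.2 RPKM in KO 24 h recovery and 18.3 RPKM in KO 22 °C) and Esrrg 4.07-fold higher (4.16 RPKM in KO 24 h recovery and 0.993 RPKM in KO 22 °C, adjusted p = 4.2e-19). Ppara, which drives fatty acid oxidation genes, was 1.83-fold higher in KO (62.8 RPKM in KO 24 h recovery and 33.5 RPKM in KO 22 °C) and 2.33-fold lower in Control (40.4 RPKM at 24 h and 98.8 RPKM at 22 °C). Esrrg too fell in Control, by 1.95-fold in the deposited table. Rxra, the common partner receptor, was 2.17-fold lower in KO (adjusted p = 1.4e-17), and Nr3c2, the mineralocorticoid receptor, 2.72-fold lower.

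Chromatin genes mostly fell, in small steps, and corepressor genes fell more often than they rose. Of 26 corepressor and deacetylase genes 5 rose and 10 fell, beside 22.1% and 19.8% over all rows. Ncor1, which encodes a partner of HDAC3, was among those that fell (1.66-fold lower, adjusted p = 1.8e-08). Sirt3, the mitochondrial deacetylase, was 3.21-fold higher (42.0 RPKM in KO 24 h recovery and 12.8 RPKM in KO 22 °C). Of 35 chromatin writers and erasers 22 fell and 1 rose (median log2 fold change -0.45), with Kmt2d, a methyltransferase of enhancers, 2.51-fold lower (1.30 RPKM in KO 24 h recovery and 3.20 RPKM in KO 22 °C). In Control 11 of them fell and 0 rose. These are long genes, with a median length of 6644 bases in the deposited table, against 2744 over all rows.

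Calls in KO moved with gene length across the whole table. Among the shortest quartile of genes 27.2% rose and 9.72% fell, and among the longest quartile 13.8% rose and 32.3% fell. The median log2 fold change was 0.13 in the shortest quartile and -0.19 in the longest. The rising mitochondrial lists are short (complex I, median 710 bases) and the falling chromatin list is long, and the part of length in either was not tested.

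**Figure D4:**
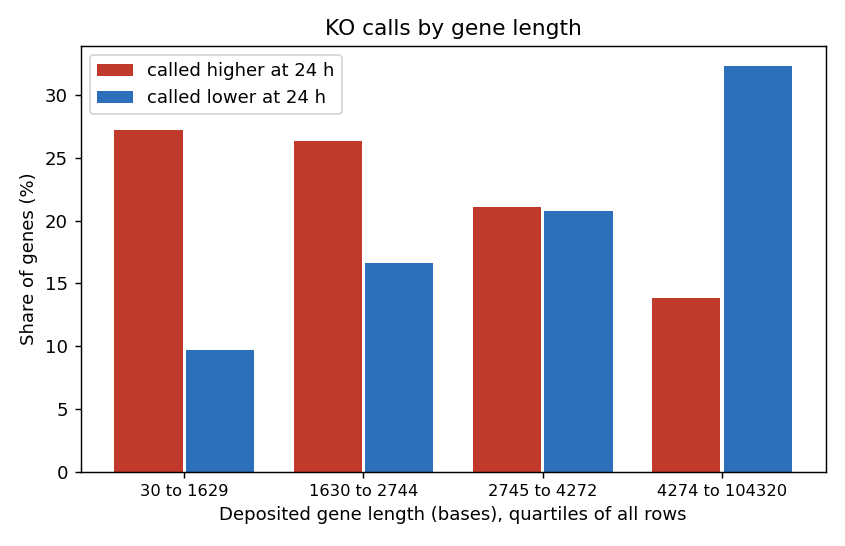
Share of genes (%) called higher and called lower in KO 24 h recovery over KO 22 °C, for each quartile of the deposited gene lengths; bars start at 0. The share called higher falls to 13.8% in the longest quartile and the share called lower reaches 32.3% there.

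Chaperone genes rose more often than they fell. Of 27 heat shock and chaperone genes 15 rose and 1 fell, with the mitochondrial chaperonin Hspd1 3.35-fold higher (473 RPKM in KO 24 h recovery and 138 RPKM in KO 22 °C, adjusted p = 1.4e-47). Of 20 genes of endoplasmic reticulum stress 12 rose and 2 fell, with Manf 3.64-fold higher and Hspa5, the BiP chaperone, 2.23-fold higher, while Xbp1, a transcription factor of this response, was 2.71-fold lower (24.6 RPKM in KO 24 h recovery and 65.1 RPKM in KO 22 °C). Of 35 proteasome genes 17 rose and 1 fell (median log2 fold change 0.30). Most genes of the immunoproteasome and MHC class I list went the other way, since 8 of 11 fell and 2 rose (median -0.93). Psmb8, Psmb9 and Psmb10 were among those that fell, and Psme1 and Psme2 were those that rose. Psmb9 was 2.52-fold lower (18.1 RPKM in KO 24 h recovery and 44.5 RPKM in KO 22 °C), and B2m, the light chain of MHC class I, 1.86-fold lower (719 RPKM in KO 24 h recovery and 1305 RPKM in KO 22 °C). H2-K1 and H2-D1 were 2.07-fold and 2.06-fold lower, but these paralogs are nearly identical and their reads may be shared. Lipa, the lysosomal acid lipase, was 5.67-fold higher (89.3 RPKM in KO 24 h recovery and 15.4 RPKM in KO 22 °C, adjusted p = 1.7e-45).

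Several of the most abundant adipocyte RNAs fell. Car3, carbonic anhydrase 3, had a deposited mean of 1606 RPKM in KO 24 h recovery, against 7086 RPKM in KO 22 °C (4.50-fold lower), and Cfd, the adipokine adipsin, 1206 RPKM against 4947 RPKM in KO 22 °C (4.19-fold lower). Apoe had 1119 RPKM in KO 24 h recovery, against 3196 RPKM in KO 22 °C (2.90-fold lower), and Cyp2e1, a cytochrome P450, 606 RPKM against 1928 RPKM in KO 22 °C (3.23-fold lower). Scd1, the main desaturase of fat, stayed the most abundant of the genes that fell, at 5064 RPKM in KO 24 h recovery and 7420 RPKM in KO 22 °C (1.51-fold lower, adjusted p = 0.031). Lep, the leptin gene, was 6.82-fold lower in KO (10.3 RPKM in KO 24 h recovery and 69.1 RPKM in KO 22 °C), with Control at 3.71 RPKM at 24 h and 25.5 RPKM at 22 °C. Of 15 white fat markers 6 fell and 2 rose. Of 21 genes of adipocyte identity 4 rose and 7 fell (median log2 fold change -0.20), beside 22.1% and 19.8% over all rows. Adipoq, Pparg, Plin1, Lipe, Cidec, Pck1 and Lep fell, and Cd36, Acsl1, Dgat2 and Gpd1 rose. Fabp4 had 19069.6 RPKM in KO 24 h recovery and 16522 RPKM in KO 22 °C, with no change called (adjusted p = 0.274).

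Macrophage and collagen genes, called widely in Control, were mostly not called in KO. Of 26 macrophage genes 1 fell and 0 rose in KO (median log2 fold change 0.25), whereas in Control 21 rose and 0 fell (median 1.07). Their summed deposited means, Lpl included, were 3286 RPKM in KO 24 h recovery and 2675 RPKM in KO 22 °C. Control sums were 1660 RPKM at 24 h and 849 RPKM at 22 °C. Such sums weigh abundant genes most. Gene by gene, the median log2 fold change of KO over Control was 0.50 at 22 °C, with 6 of 25 higher and 0 lower. At 24 h it was -0.42, with 1 of 26 higher and 2 lower. Cd68, a lysosomal marker of macrophages, had 7.07 RPKM in KO 24 h recovery and 3.61 RPKM in KO 22 °C (adjusted p = 0.079), and 10.8 RPKM in Control 24 h recovery and 2.32 RPKM in Control 22 °C (adjusted p = 3.4e-05). Of 21 collagen genes 4 rose and 2 fell in KO and 14 rose and 0 fell in Control, and the KO change lay above the Control change for 2 of them and below it for 10. Matrix genes had 2 of 35 higher and 14 lower in KO, against 10 higher and 2 lower in Control, beside 5 of 15 fibroblast and preadipocyte markers lower and 1 higher in KO, and 0 lower and 2 higher in Control. The summed means of these markers were 363 RPKM in KO 24 h recovery and 859 RPKM in KO 22 °C, beside 460 RPKM in Control 24 h recovery and 519.5 RPKM in Control 22 °C, and their part in the matrix counts was not tested. Gsn, a marker that fell, made up most of the KO sums. Among matrix genes, Timp3, an inhibitor of matrix proteases, was 2.41-fold lower in KO. The 2 that rose were Eln, which encodes elastin, and Loxl1, a matrix cross-linking enzyme (5.75-fold higher). Skeletal muscle genes, a sign of muscle taken with the pad, had 0 of 24 called either way, and their summed means were 208.8 RPKM in KO 24 h recovery and 211.7 RPKM in KO 22 °C. Endothelial genes had 2 of 20 higher and 4 lower, and erythroid genes 0 of 9 higher and 1 lower. S100b, listed here as a Schwann cell marker, was 13.7-fold higher (14.01 RPKM in KO 24 h recovery and 0.987 RPKM in KO 22 °C), and of the 5 listed genes of that kind 1 rose and 1 fell. Of 33 cell cycle genes 16 rose and 1 fell in KO (median log2 fold change 1.10), 10 of the 33 under 0.5 RPKM in 1 group. In Control 18 of 32 rose and 0 fell (median 1.08).

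The KO and Control changes were then tested against each other, gene by gene. The KO change was above the Control change for 1163 of 10923 genes (10.6%) and below it for 760 (6.96%), at an adjusted p under 0.05 of the difference between the deposited log2 fold changes. Of the 2753 genes that rose in KO and were listed in both tables, 1057 also rose in Control, which is 38.4% of the KO list and 64.5% of the 1638 that rose in Control. Of the 2431 that fell in KO, 665 also fell in Control, 27.4% of the KO list and 61.8% of the 1076 that fell in Control. Opposite calls were rarer, with 64 genes higher in KO and lower in Control (2.32% of the KO list that rose). Another 39 were lower in KO and higher in Control (1.6% of the KO list that fell). Over all rows of each table, 22.1% rose and 19.8% fell in KO, and 13.1% rose and 8.67% fell in Control. Acaa2 had a difference of 3.21 log2 (adjusted p = 7.0e-41), Cox7a1 a difference of 3.30 (adjusted p = 7.7e-32) and Ldhb one of 2.81 (adjusted p = 1.0e-34). Fabp3 differed by 5.44 (adjusted p = 1.3e-22) and Ucp1 by 5.18 (adjusted p = 7.3e-16). The difference was above 0 for 33 of the 36 complex I subunits, and 0 of the 67 cytosolic ribosomal protein genes tested differed in either direction.

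Among genes whose KO change lay below the Control change, Itga7, an integrin of muscle and vessel walls, had 17.2 RPKM in KO 24 h recovery and 52.7 RPKM in KO 22 °C, beside 19.7 RPKM in Control 24 h recovery and 16.7 RPKM in Control 22 °C (difference -1.93 log2, adjusted p = 7.7e-20). Plekha6 had 0.239 RPKM in KO 24 h recovery and 4.76 RPKM in KO 22 °C, beside 0.408 RPKM and 0.738 RPKM in Control at 24 h and 22 °C (difference -3.55 log2). Igfals, which binds IGF complexes in blood, had 7.29 RPKM in KO 24 h recovery and 30.9 RPKM in KO 22 °C, beside 6.34 RPKM and 5.37 RPKM in Control at 24 h and 22 °C (difference -2.41 log2). Each of these 3 genes was highest in KO at 22 °C among the 4 groups. Hsd3b7, a bile acid synthesis enzyme, had a different shape, with 13.4 RPKM in KO 24 h recovery and 35.6 RPKM in KO 22 °C, and 41.7 RPKM in Control 24 h recovery and 30.7 RPKM in Control 22 °C.

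**Figure D5:**
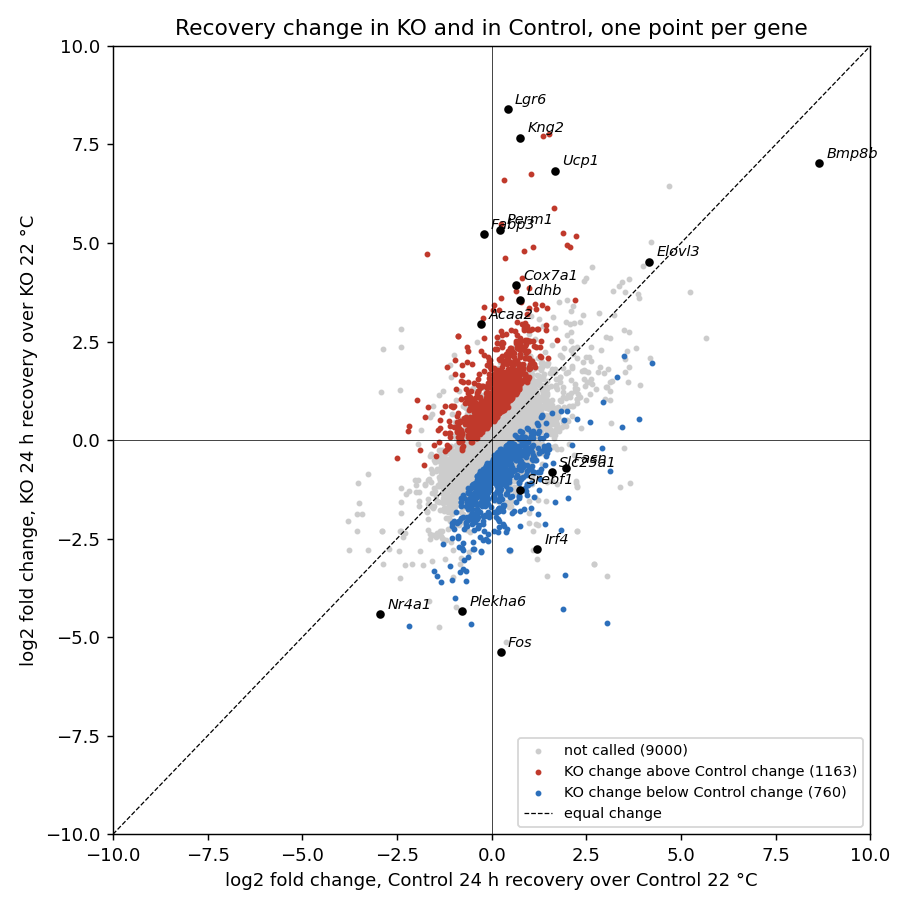
Deposited log2 fold change of 24 h recovery over 22 °C in KO (vertical) against Control (horizontal), 1 point per gene, with genes whose changes differ in red (1163, KO above Control) and blue (760, KO below). Ucp1, Fabp3 and Cox7a1 lie far above the dashed line of equal change, Elovl3 lies near it, and Fos lies far below.

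The comparisons of KO with Control share libraries with the KO recovery comparison, so their values are only set side by side. Per the deposited values, all 36 complex I subunits were lower in KO than in Control at 22 °C (median log2 fold change -1.11), and 9 of 36 at 24 h (median -0.12). Immediate early genes had 22 members higher and 1 lower in KO than in Control at 22 °C (median 1.24), and 0 higher and 2 lower at 24 h (median -0.30). Over all rows, 34.3% of genes were called between KO and Control at 22 °C (16.3% higher and 18% lower in KO), 18.5% at 24 h (10.5% higher and 7.96% lower) and 15.3% at 7 d (9.18% higher and 6.14% lower). Summed over complex I, the deposited KO means were 4094 RPKM at 22 °C, 9675 RPKM at 24 h and 9670 RPKM at 7 d of recovery. For the thermogenic programme, over the 28 genes listed at each time, the sums were 1827, 11431 and 8366 RPKM at 22 °C, 24 h and 7 d. Kng2 had another course, with KO means of 0.097 RPKM at 22 °C, 21.3 RPKM at 24 h and 3.31 RPKM at 7 d.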

How the data were processed

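Total RNA of interscapular brown fat was depleted of ribosomal RNA with Ribo-Zero and made into TruSeq libraries, per the labels' protocols. The submitters' processing notes name STAR, featureCounts, edgeR and the build mm9. Their versions, settings, strand and treatment of shared reads are not given in the sources used here. Of 5 deposited tables, each for a pair of groups, the KO recovery table was the one analysed and the other 4 were set beside it. Per the file headers, a row gives the gene length (a number of bases), the log2 fold change, the average log2 CPM, the p-value with its false discovery rate, 2 group means and a status. The sign of the deposited log2 fold change was checked against the means: here it is KO 24 h recovery over KO 22 °C. Which edgeR test made the deposited p-value is likewise not given. The deposited means have no stated unit and were taken as RPKM, since they follow gene length and average CPM. A log2 ratio of the deposited RPKM means lay a median of 0.034 above the deposited log2 fold change. The authors' status marks an adjusted p under 0.01 with at least 1.5-fold, and every row followed that rule.

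Rows reach 0.5 RPKM in the higher group, and the adjusted p-value of the authors corrects for at least 13414 genes. The planned edgeR count test could not be fitted to means, and a call is an adjusted p under 0.05 in the authors' edgeR result. Library totals came from steps between low means (98.7% of 300 explained in KO 24 h recovery, 100% of 325 in KO 22 °C) and belong to no replicate number. The members, the 78 gene lists and the rules were chosen with earlier results of these data known, and promoter motifs after the calls were seen. The rule for named genes took Hdac3 and Ucp1, up to 12 genes per direction by log2 fold change (average log2 CPM of at least 1), up to 10 per direction by level, up to 4 by p from each list with 3 or more calls, and up to 8 per direction by the p of the difference between genotypes. It passed over predicted loci and small RNAs, and the text leaves out some genes it names. Genes outside it (members that did not pass, isoform pairs, cell markers and a few others) were chosen after their values were seen.

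For the difference between genotypes, each log2 fold change with p up to 0.9 got an error equal to its size over the normal score of its deposited p-value, and the difference was tested two-sided against a normal distribution with Benjamini-Hochberg adjustment over 10923 genes. On simulated data of 10923 genes this called 51 of 92 genes differing by 1 log2, 81 of 93 differing by 2 log2 and 5 of 9924 with no difference. Simulated data cannot show whether errors rebuilt in this way from the deposited p-values are right. These counts therefore do not check that step, and the rate of false calls in the real data is not known. Python 3.11.15, pandas 2.3.3, numpy 2.4.6, scipy 1.17.1 and matplotlib 3.10.9 were used. Alternatives were stricter thresholds, a fold minimum, a level minimum, offsets on the means, ratios of means and other adjustments.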

Additional observations from a re-analysis of the deposited data

Results flagged for a closer look

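The recovery change differed between KO and Control, by the test of the difference itself, for 1163 genes with the KO change above the Control change and 760 below it. Among the named genes above 0 the differences in log2 were 3.21 for Acaa2, 3.30 for Cox7a1, 2.81 for Ldhb, 4.28 for Cpn2, 6.91 for Kng2 and 7.96 for Lgr6. Lgr6 rests on about 1 read behind the KO 22 °C mean, so its size depends on how low counts were handled. Cpt1b had 2.47 and the overlapping ChkbCpt1b 2.32, which share reads. Below 0 the differences were -3.55 for Plekha6, -2.41 for Igfals, -2.41 for Slc25a1, -1.99 for Srebf1, -1.93 for Itga7, -1.93 for Hsd3b7, -1.74 for Slc27a1 and -1.71 for Asph. Single libraries could not be looked at for values that stand apart, since the tables hold group means.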

How the results depend on the processing

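Requiring at least 2-fold left 1050 genes higher and 782 lower in KO, Bonferroni adjustment 1330 and 762, and the authors' status of adjusted p under 0.01 with 1.5-fold, an alternative chosen after seeing the data, 1815 and 1466. Each of these keeps fewer genes by its construction. At an adjusted p under 0.01 the KO change was below the Control change for 422 genes. The median of the erythroid list turned from -0.04 to 0.01 log2 when taken from the deposited means with 0.1 or with 1 RPKM added, and the cause was not tested. Adding 1 RPKM also gave medians of -1.31 for immediate early genes and 0.50 for cell cycle genes, since both lists hold genes under 1 RPKM. No paired analysis was possible because the tables hold no library values, and leaving out single libraries and other normalizations were not run for the same reason. Depth limits the genes under 0.5 RPKM in 1 group, 169 of the genes called higher and 175 of those called lower, whose folds rest on few reads. Counting errors alone are not given because the means carry no counts per library.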

Other observations

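Lipid storage genes rose more often than they fell in KO. Of 21 genes of triglyceride and glycerol metabolism 13 rose and 4 fell, and of 18 genes of lipolysis and the lipid droplet 8 rose and 4 fell. Over all rows 22.1% rose and 19.8% fell, so the falls in both lists were close to that share. Plin4, a droplet coat protein, had a deposited mean of 74.8 RPKM in KO 24 h recovery, against 286 RPKM in KO 22 °C (3.92-fold lower, adjusted p = 7.4e-40). Plin1, the coat protein that gates lipolysis, was 1.54-fold lower and Adipoq, which encodes adiponectin, 1.97-fold lower in the deposited table. Dgat2, which makes triglyceride from diglyceride, was 1.71-fold higher, at 1743 RPKM in KO 24 h recovery and 994 RPKM in KO 22 °C. Of 10 acyl-CoA thioesterase genes 8 rose and 0 fell, among them Acot1 and Acot2, close paralogs whose reads may be shared.

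Antioxidant genes split, with 15 of 39 higher and 11 lower. The mitochondrial members Sod2 and Prdx3 rose, with Sod2 at 153 RPKM in KO 24 h recovery and 42.2 RPKM in KO 22 °C (adjusted p = 1.0e-42) and Prdx3 at 356 RPKM in KO 24 h recovery and 171 RPKM in KO 22 °C. The glutathione peroxidases Gpx1 (150 RPKM in KO 24 h recovery and 367 RPKM in KO 22 °C) and Gpx3 (56.04 RPKM in KO 24 h recovery and 178 RPKM in KO 22 °C) fell in the deposited table. In the integrated stress response 6 of 22 genes rose and 5 fell, close to the 22.1% and 19.8% over all rows. Mthfd2, a mitochondrial folate enzyme, had 4.61 RPKM in KO 24 h recovery and 0.562 RPKM in KO 22 °C, whereas Chac1, which degrades glutathione, had 1.78 RPKM in KO 24 h recovery and 11.9 RPKM in KO 22 °C.

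Of 24 genes of apoptosis and cell death 9 fell and 0 rose, with Bcl2 at 0.736 RPKM in KO 24 h recovery and 2.80 RPKM in KO 22 °C. Of 28 insulin signalling genes 8 fell and 3 rose, while Mtor, the growth kinase, was 3.07-fold higher (44.4 RPKM in KO 24 h recovery and 14.1 RPKM in KO 22 °C, adjusted p = 2.5e-35) in the deposited table. Of 18 glucocorticoid targets 6 fell and 2 rose, led by Fkbp5 at 1.76 RPKM in KO 24 h recovery and 9.86 RPKM in KO 22 °C. Of 8 MHC class II genes 4 fell and 0 rose, namely H2-Aa, H2-Ab1, H2-Eb1 and Cd74. Of 33 interferon response genes 3 rose and 5 fell (median log2 fold change 0.02), beside 22.1% and 19.8% over all rows. Irf1, Ifih1, Usp18, Gbp6 and Ddx58 fell, and Ifi27, Rsad2 and Gbp3 rose. Ifi27 was 2.84-fold higher, at 1322 RPKM in KO 24 h recovery and 457 RPKM in KO 22 °C.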
